A study of Mus musculus with 24 samples.

Results

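The drug-metabolizing cytochrome P450 enzymes of families Cyp1, Cyp2 and Cyp3 were examined in the livers of mice fed different diets. They were taken as every probe set of the array whose single annotated gene symbol begins with Cyp1, Cyp2 or Cyp3 followed directly by a letter, without the Cyp2b genes. This rule gave 46 of 45037 probe sets, for 39 genes. A further 2 probe sets were annotated to several genes of these families (Cyp3a41a with Cyp3a41b, and Cyp2a4 with Cyp2a5), so that they could not be named, and 6 probe sets of Cyp2b genes lay outside the rule. Expression was measured once in each of 24 female NMR-1 mice, which were 8 weeks old when they went onto 1 of 4 diets for 2 weeks. Each diet had 6 mice, and RNA processing was split into batches of 3 mice per diet (batch 1 and batch 2). The pellet diet was the feed on which all the mice had been raised. The chimpanzee diet was made up of vegetables, fruit and yogurt. The cafeteria diet was cooked canteen food and the fast food diet was restaurant fast food only, and these were pooled as human diets where so named. The study asked whether human diets and a chimpanzee diet act differently on expression in the liver. Littermates were divided among the diets, but litters are not named in the labels.

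Cytochromes P450 are heme enzymes of the endoplasmic reticulum that put oxygen into fat-soluble molecules, with electrons passed on by a reductase. Enzymes of the first families are best known in the liver for clearing drugs, plant compounds and cooking products, but several of them act on the body's own steroids, fatty acids, bile acids, retinoids or vitamin D. Many of their genes are switched on by receptors that sense foreign compounds: Ahr for Cyp1 genes, and Nr1i2 (the pregnane X receptor) and Nr1i3 (the constitutive androstane receptor) for many Cyp2 and Cyp3 genes. The mouse has large clusters of closely related Cyp2c, Cyp2d, Cyp2j and Cyp3a genes, and several of those differ between the sexes.

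All levels are log2 expression values, so that a difference of 1 is a doubling, and the level of a probe set can be compared between mice but not with that of another probe set. Arrays of batch 2 had a narrower range of values, with a 90th percentile of 6.04 ± 0.20 (SD, 12 arrays) against 6.50 ± 0.07 in batch 1. The 3' minus 5' difference of beta-actin, which is larger in degraded RNA, was 1.08 ± 0.15 under the chimpanzee diet, 0.906 ± 0.054 under cafeteria, 0.800 ± 0.126 under fast food and 0.754 ± 0.135 under pellet (SD, 6 arrays each). The mean level of 7 hepatocyte markers lay between 11.49 and 12.01 in every mouse, and 0 of them were called in any comparison of 2 diets or of the human diets. Of the 46 P450 probe sets, 39 (34 genes) lay above the median of all array values, 3.15, in at least 6 arrays and were tested together with all 25544 probe sets that passed. The other 7 (Cyp1a1, the 3 probe sets of Cyp1b1, Cyp2c65, Cyp2d12 and Cyp2j13) had means between 2.59 and 2.99, with diet means at most 0.102 apart. Cyp1a1 is the enzyme induced most strongly through Ahr, and Cyp1b1 is made mainly outside the liver. Each test used limma with batch as a covariate, and a probe set was called at a Benjamini-Hochberg adjusted p of 0.05 over all 25544.

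In the main fits a few of these enzymes were called, either in the test across the 4 diets or in a comparison with the pellet diet. Across the 4 diets 6 of the 39 tested probe sets were called, beside 7.22% of all probe sets: Cyp2c38, Cyp2c55, Cyp2c68, Cyp2d40, Cyp2r1 and Cyp3a44. On the human diets compared with pellets 5 were called (4.03% of all), of which Cyp2c38 was higher (1.68% of all were called higher) and Cyp2c55, Cyp2c68, Cyp2r1 and Cyp3a16 were lower (2.35%). On the chimpanzee diet compared with pellets 4 were called (8.69% of all), with Cyp2c38 higher (2.56%) and Cyp2c55, Cyp2r1 and Cyp2g1 lower (6.14%). Between human and chimpanzee diets 0 were called (0.767%). In that comparison 11 of the 39 had an unadjusted p under 0.05, beside 13.2% of all probe sets. Between cafeteria and fast food 0 were called (0.0235%), with 4 of the 39 at an unadjusted p under 0.05, beside 5.16% of all. The called shares of 15.4% across the 4 diets, 12.8% for human minus pellet and 10.3% for chimpanzee minus pellet rest on 4 to 6 probe sets each and are given as a description beside those of all probe sets. Cyp2c55, Cyp2r1 and Cyp3a16 passed the filter mainly through pellet arrays, so their calls add no support to these counts. With the filter in at least 12 of 24 arrays, 4 of 35 were called across the 4 diets (8.39% of all). In that setting 2 were called for human minus pellet (4.7%) and 2 for chimpanzee minus pellet (10%). Quantile normalization of the deposited values gave 13 across the 4 diets (11.6% of all) and 13 for chimpanzee minus pellet (11.1%). The beta-actin difference as a covariate gave 2 (2.90%) and 2 (1.23%) in these comparisons. The comparisons of the human diets and of the chimpanzee diet with pellets share the same 6 pellet mice. The median difference of the 39 probe sets was -0.03 for human diets minus pellet, -0.06 for chimpanzee minus pellet, 0.02 for human minus chimpanzee and 0.02 for cafeteria minus fast food, and that of all probe sets was at most 0.01 away from 0 in each. For human minus chimpanzee the 95% interval of the difference lay within 1 log2 unit of 0 for 36 of the 39, and within 0.5 for 27.

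**Figure D1:**
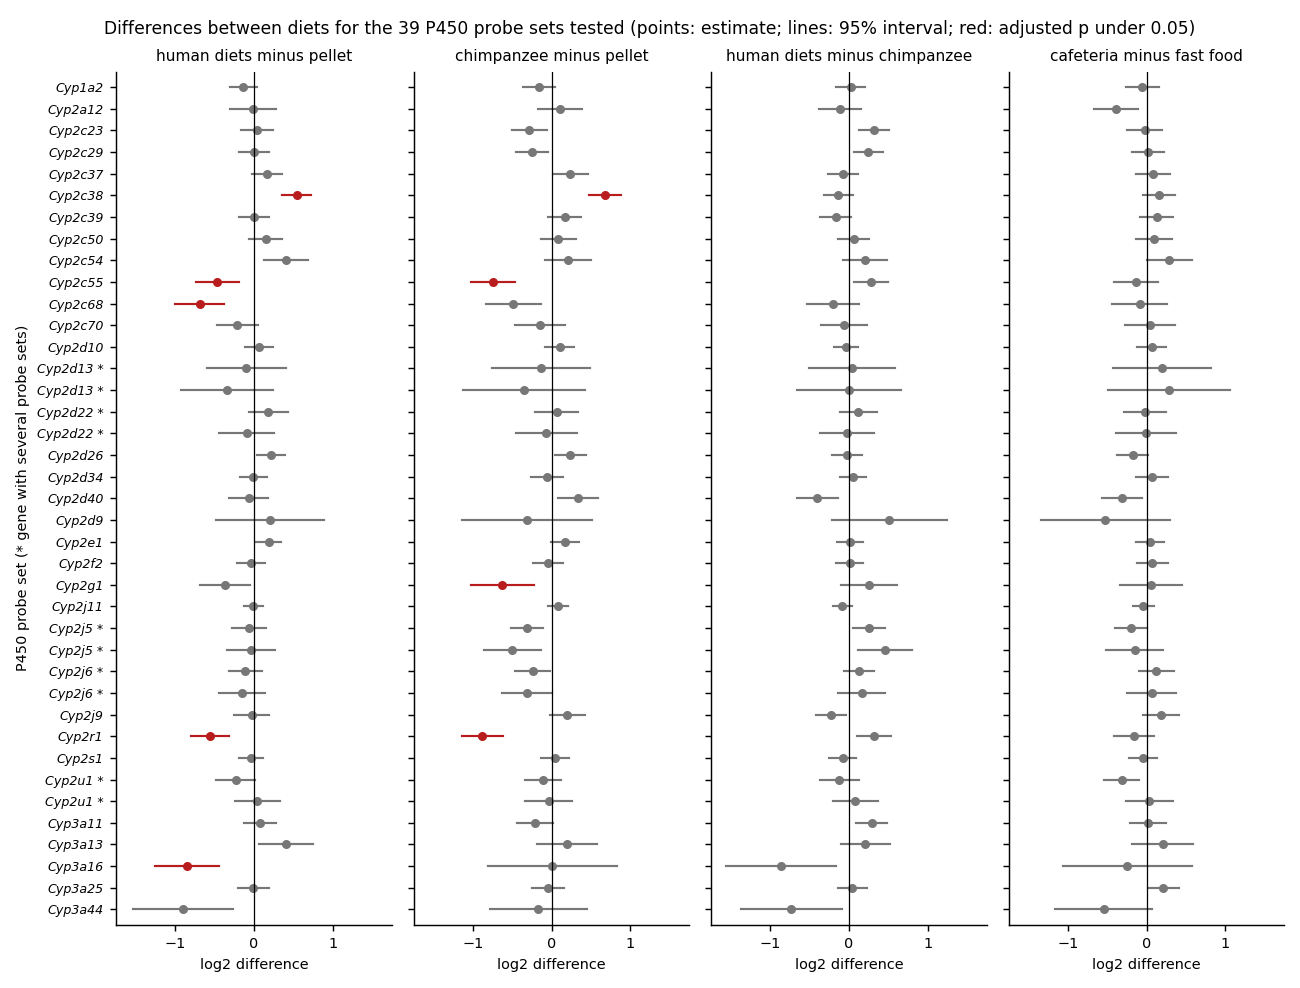
Difference between diets (log2) for each of the 39 P450 probe sets tested, with the 95% interval from limma as a line, in 4 comparisons side by side. Red marks an adjusted p under 0.05: 5 probe sets for human diets minus pellet, 4 for chimpanzee minus pellet and 0 in the other comparisons, and Cyp3a16, Cyp3a44, Cyp2d9 and Cyp2d13 have the widest intervals.

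The Cyp2c genes have products that oxidize many drugs as well as arachidonic acid. Of 10 that passed the filter, 3 were called on the human diets against pellets (4.03% of all probe sets). On the chimpanzee diet against pellets 2 were called (8.69%). The called genes did not share 1 direction: Cyp2c38 was higher than on pellets, and Cyp2c68 and Cyp2c55 were lower. Cyp2c38, which belongs to the mouse enzymes that oxidize arachidonic acid, lay between 8.64 and 9.28 (median 8.77) in the pellet mice. Its values ran from 9.26 to 9.88 (median 9.49) on the chimpanzee diet, from 9.23 to 9.79 (median 9.39) on cafeteria and from 9.17 to 9.47 (median 9.28) on fast food. Of the 6 pellet mice, 5 lay below every mouse on another diet, and only the pellet mouse batch 1 replicate 1 overlapped with them. The level was 1.45-fold higher on the human diets than on pellets (log2 difference 0.54 ± 0.09 SE, adjusted p = 0.000811) and 1.60-fold higher on the chimpanzee diet (0.68 ± 0.10, adjusted p = 9.62e-05). In batch 1 and batch 2 the difference from pellets was 0.47 and 0.61 for the human diets, and 0.66 and 0.69 for the chimpanzee diet. It was called in both comparisons whichever mouse was left out. The human minus pellet call was lost in batch 1 alone (adjusted p = 0.118) and in batch 2 alone (0.0581). The chimpanzee minus pellet call was lost in batch 2 alone (0.0602). Human and chimpanzee diets differed by -0.14 ± 0.09 (adjusted p = 0.561).

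Cyp2c68 moved the other way. This gene of the same cluster lay between 11.37 and 11.78 (median 11.54) in the pellet mice, between 10.86 and 11.44 (median 11.04) on the chimpanzee diet, between 10.29 and 11.29 (median 11.16) on fast food and between 10.38 and 11.16 (median 10.94) on cafeteria. All 12 mice on human diets lay below all 6 pellet mice, while 1 chimpanzee diet mouse reached into their range. The level fell by 0.69 on the log2 scale on the human diets (± 0.15 SE, 1.61-fold, adjusted p = 0.0101), by 0.78 in batch 1 and by 0.60 in batch 2. On the chimpanzee diet the difference from pellets was -0.49 ± 0.17 and did not pass (adjusted p = 0.0786). The call of Cyp2c68 across the 4 diets (moderated F, adjusted p = 0.0224) was lost with the beta-actin difference as a covariate (0.0593), with batch left out (0.0622) and with the methods' test after adjustment (0.0576). A probe set named for 1 gene of this cluster may also bind the transcript of a related gene, and the share of such binding was not tested. The promoters of Cyp2c38 and Cyp2c68 are shown because the probe sets of these members of 1 gene cluster had opposite changes. The sequences are from RefSeq (GRCm38.p6), minus strand, 250 bases before to 50 after the start of the gene, at chr19:39463026-39463325 and chr19:39741052-39741351. Capitals mark matches, on either strand, to TATAAA (the TATA box), AGGTCA (the core bound by nuclear receptors such as Nr1i2 and Nr1i3) and GCGTG (the core bound by Ahr with Arnt). The motifs do not overlap here.
Cyp2c38: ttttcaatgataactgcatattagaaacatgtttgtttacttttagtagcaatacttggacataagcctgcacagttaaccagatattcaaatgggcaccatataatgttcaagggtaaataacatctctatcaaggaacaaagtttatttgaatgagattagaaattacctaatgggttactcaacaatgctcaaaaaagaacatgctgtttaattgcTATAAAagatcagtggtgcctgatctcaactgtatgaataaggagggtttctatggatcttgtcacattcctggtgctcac
Cyp2c68: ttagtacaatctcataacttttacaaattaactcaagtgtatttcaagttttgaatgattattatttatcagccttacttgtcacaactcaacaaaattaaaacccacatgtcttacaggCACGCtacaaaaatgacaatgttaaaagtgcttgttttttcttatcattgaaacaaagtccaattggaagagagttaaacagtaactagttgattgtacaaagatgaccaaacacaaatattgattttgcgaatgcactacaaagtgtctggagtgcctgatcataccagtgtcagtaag
These 2 windows were identical at 50.9% of aligned bases, whereas the Cyp2c38 window matched that of Cyp2c29 at 70.8% and that of Cyp2c39 at 78.1%. The Cyp2c38 window held TATAAA, beginning 31 bases before the start, and the Cyp2c68 window held GCGTG on the opposite strand (printed as its reverse complement). Neither held AGGTCA. Of the 32851 RefSeq windows of this length, 13.6% held TATAAA, 16.3% held AGGTCA and 32.4% held GCGTG. Among the 31 P450 genes here that have such a window, 17 held TATAAA, 9 held AGGTCA and 6 held GCGTG.

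Cyp2c55, an enzyme known to be induced by foreign compounds, was dim. Its values ran from 2.99 to 4.09 (median 3.51) on pellets and from 2.72 to 2.88 (median 2.81) on the chimpanzee diet, without overlap. Fast food values ran from 2.74 to 3.61 (median 3.04) and cafeteria values from 2.76 to 3.34 (median 2.98), both overlapping with pellets. The level was 1.67-fold lower on the chimpanzee diet than on pellets (-0.74 ± 0.14 SE, adjusted p = 0.000933) and 1.38-fold lower on the human diets (-0.47 ± 0.13, adjusted p = 0.0481). The second call was held only when 1 of 4 mice was left out (fast food batch 1 replicate 1, fast food batch 2 replicate 1, cafeteria batch 2 replicate 3 or pellet batch 2 replicate 1) and was lost for the other 14 of 18, with adjusted p between 0.0590 and 0.168 in those 14 fits. Cyp2c55 passed the filter in 8 arrays, of which 5 were pellet arrays, 2 fast food and 1 cafeteria, and it is not tested when the filter asks for 12. Its lower groups lie below the filter level of 3.15, where background may compress a difference. The remaining Cyp2c genes that passed the filter were not called in any comparison in the main fits. Among these, Cyp2c29 and Cyp2c39 act on arachidonic acid and retinoids, and Cyp2c70 makes the muricholic acids, bile acids of rodents. Cyp2c29 had a mean of 11.00 ± 0.11 (SD, n = 6) on the chimpanzee diet and of 11.23 ± 0.24, 11.25 ± 0.13 and 11.24 ± 0.17 on fast food, cafeteria and pellets, and Cyp2c70 lay between 10.87 and 11.10 as a mean in the 4 diets. Across the 4 diets Cyp2c29 was not called (moderated F, adjusted p = 0.248), but it was with quantile normalization (0.0183), cyclic loess (0.0199) or array weights (0.0425). For Cyp2c54 human diets minus pellet was 0.41 ± 0.13 (adjusted p = 0.106).

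**Figure D2:**
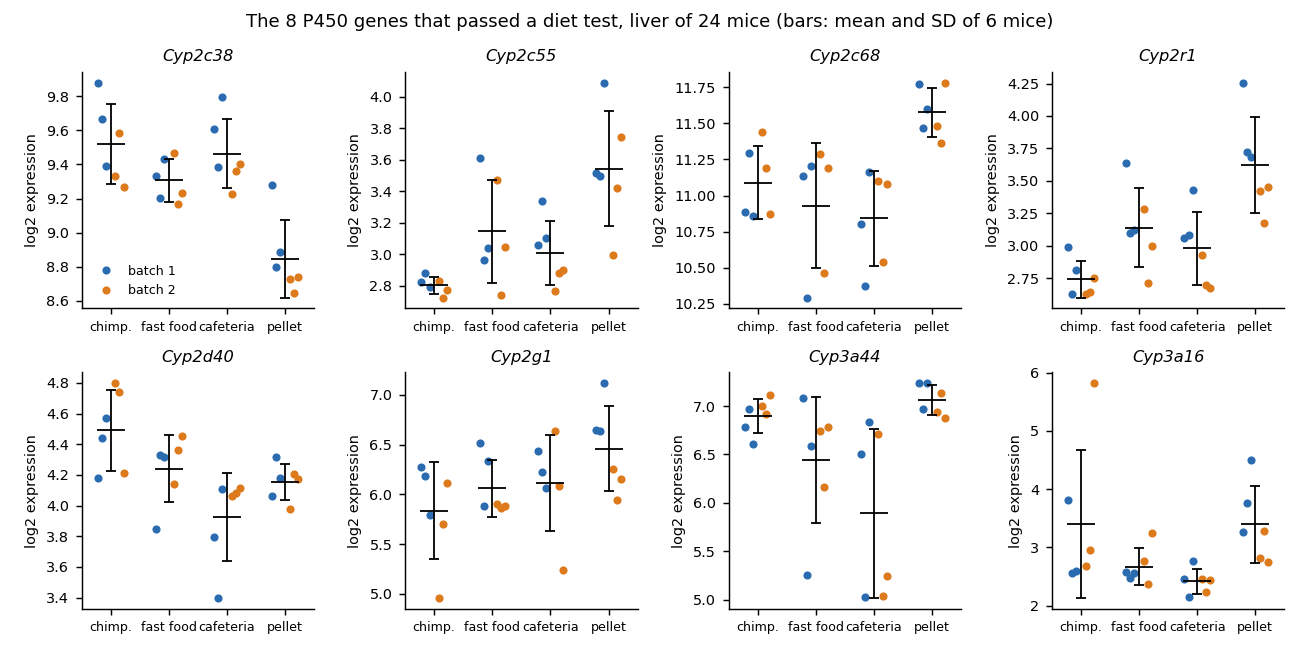
Log2 expression in each of 24 livers of the 8 P450 genes that passed a diet test, grouped by diet (blue points, batch 1; orange points, batch 2; black bars, mean and SD over 6 mice). Pellet mice are lowest for Cyp2c38 (mean 8.84) and highest for Cyp2c68 (11.58) and Cyp2r1 (3.62), and for Cyp3a44 the mice on human diets spread from 5.03 to 7.09 while those on chimpanzee and pellet diets lie between 6.61 and 7.24.

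Cyp2r1 is the enzyme that adds the first hydroxyl group to vitamin D in the liver, giving calcidiol. It had its highest values on pellets, from 3.17 to 4.26 (median 3.57), and its lowest on the chimpanzee diet, from 2.63 to 2.99 (median 2.70), so that these diets did not overlap. Fast food mice lay between 2.71 and 3.63 (median 3.11) and cafeteria mice between 2.67 and 3.43 (median 2.99). The level was 1.84-fold lower on the chimpanzee diet than on pellets (-0.88 ± 0.12 SE, adjusted p = 6.06e-05), by -1.08 in batch 1 and -0.68 in batch 2. On the human diets it was 1.47-fold lower than on pellets (-0.56 ± 0.11, adjusted p = 0.00546), by -0.65 in batch 1 and -0.47 in batch 2. Both calls held whichever mouse was left out. The human minus pellet call was lost with batch left out of the fit (adjusted p = 0.0822). It was also lost in batch 1 alone (0.0530) and in batch 2 alone (0.525). The chimpanzee minus pellet call was lost in batch 2 alone (0.123). Human minus chimpanzee was 0.32 ± 0.10 (adjusted p = 0.16). All 6 chimpanzee diet values lay below 3.15, so their distance from the pellet values may be compressed. Cyp2r1 was above 3.15 in 9 arrays, all 6 pellet arrays, 2 fast food and 1 cafeteria, and it too is not tested when the filter asks for 12. Since Cyp2c55 and Cyp2r1 were tested mainly because pellet mice were above the filter level, their calls against pellets add no support to the counts of called members.

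Cyp2g1, best known from the olfactory mucosa, fell on the chimpanzee diet relative to pellets. Its values ran from 4.96 to 6.27 (median 5.95) on that diet and from 5.94 to 7.12 (median 6.45) on pellets, and they overlapped. The difference was -0.62 ± 0.19 SE (1.54-fold lower, adjusted p = 0.0426), with -0.72 in batch 1 and -0.53 in batch 2. The call was lost for 12 of the 24 mice left out in turn (adjusted p between 0.0504 and 0.128 in those fits), 5 of them chimpanzee diet and 5 pellet mice. It was also lost without the 4 arrays of lowest 90th percentile (-0.44, adjusted p = 0.131), with no filter on low values (0.0774) and with batch left out (0.209). The same held with replicate number within batch as a block (0.070) and with the methods' test after adjustment (0.0790). On the human diets the difference from pellets was -0.37 ± 0.15 (adjusted p = 0.247).

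Some cell markers and the beta-actin difference also differed between diets. Of all probe sets, 6.14% were called lower and 2.56% higher on the chimpanzee diet than on pellets. On the human diets 2.35% were called lower and 1.68% higher than on pellets. Of 7 Kupffer cell markers, 3 were lower on the chimpanzee diet than on pellets (Clec4f, Cd68 and Csf1r). Between human and chimpanzee diets 0 of these markers were called (0.767% of all probe sets). Marco had a chimpanzee minus pellet difference in the other direction, 0.37, which did not pass (adjusted p = 0.176). The mean level of the list ran from 5.15 to 6.20 in the 6 chimpanzee diet mice and from 5.90 to 6.61 in the pellet mice. On fast food it ran from 5.79 to 6.73 and on cafeteria from 5.11 to 6.58. Of 6 sinusoidal endothelium markers 1 was lower on the chimpanzee diet than on pellets (Oit3), with the list's mean level between 5.33 and 6.02 on the chimpanzee diet and between 5.41 and 6.14 on pellets. Of 7 markers of hepatocytes near the central vein, where many P450 enzymes are concentrated, Slc1a2 was higher on the chimpanzee diet than on pellets and Rhbg lower on the human diets than on pellets. Of 4 periportal markers, Hal was lower and Pck1 higher than on pellets on both the human and chimpanzee diets. Markers of bile duct, stellate cells, lymphocytes with neutrophils and exocrine pancreas had 0 called. In bulk liver, fewer cells of a type and less RNA per cell cannot be told apart. With the beta-actin difference as a covariate, chimpanzee minus pellet remained called for Cyp2c38 and Cyp2r1, and not for Cyp2c55 (-0.61, adjusted p = 0.172) or Cyp2g1 (-0.83, adjusted p = 0.197). The part of the Kupffer cell markers in these results was not tested.

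Several genes that serve or control these enzymes were higher on the other diets than on pellets. Of 23 such genes listed, 21 were on the array and 20 passed the filter. On the human diets compared with pellets 4 of these rose (1.68% of all probe sets did) and 0 fell (2.35%), with a median of 0.21 over the 20. On the chimpanzee diet compared with pellets 7 rose (2.56%) and 2 fell (6.14%), with a median of 0.17, and between human and chimpanzee diets 0 were called (0.767%). Alas1, which starts the synthesis of heme, had a mean of 8.72 ± 0.94 (SD, n = 6) on pellets and of 10.05 ± 0.48 on the chimpanzee diet, 10.04 ± 0.30 on fast food and 10.35 ± 0.55 on cafeteria (human minus pellet 1.47 ± 0.28 SE, adjusted p = 0.00391). Nr1i3 was at 7.77 ± 0.18 on pellets and at 8.82 ± 0.26, 8.75 ± 0.38 and 8.67 ± 0.38 on the chimpanzee, fast food and cafeteria diets (human minus pellet 0.94 ± 0.12 SE, adjusted p = 7.79e-05). Nr1i2 and Cebpb, a liver transcription factor, were the others that rose on human and chimpanzee diets against pellets, by 0.54 and 1.00 on the human diets. Rxra, the partner of Nr1i2 and Nr1i3, and the liver factors Hnf4a and Foxa3 rose on the chimpanzee diet, where the cytochrome b5 reductase Cyb5r3 and the transcription factor Onecut1 fell. Ahr was at a mean between 6.26 and 6.46 in the 4 diets, and was not called.

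Of the Cyp2d genes, a family of steroid and drug hydroxylases, 1 of 9 probe sets that passed the filter was called. It was called only in the test across all 4 diets (7.22% of all probe sets). Cyp2d40 lay between 4.18 and 4.80 (median 4.50) on the chimpanzee diet, between 3.40 and 4.11 (median 4.07) on cafeteria, between 3.85 and 4.46 (median 4.32) on fast food and between 3.98 and 4.32 (median 4.18) on pellets (moderated F, adjusted p = 0.0251). Every cafeteria mouse lay below every chimpanzee diet mouse, and the fast food mice overlapped with both. Human minus chimpanzee was -0.41 ± 0.12 SE, with -0.43 in batch 1 and -0.38 in batch 2, and did not pass in the fit of these 18 mice (adjusted p = 0.137), but did as a contrast in the fit of all 24 (adjusted p = 0.0461). The call across diets was lost without chimpanzee batch 1 replicate 2, batch 1 replicate 3, batch 2 replicate 1 or batch 2 replicate 2, or without cafeteria batch 1 replicate 2 (adjusted p between 0.0507 and 0.0669), with the 4 arrays of lowest 90th percentile left out (0.111), with the beta-actin difference as a covariate (0.112), with batch left out (0.0968) and with the methods' test after adjustment (0.0512). The beta-actin difference was itself highest on the chimpanzee diet. Cyp2d10, the brightest of the family, had diet means between 10.99 and 11.09, with an SD of at most 0.20, and a 95% interval of human minus chimpanzee from -0.19 to 0.11.

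The Cyp3a genes, whose products clear the widest range of drugs, differed in how far they spread between mice. Cyp3a11, regarded as the main mouse counterpart of human CYP3A4 and a target of Nr1i2, ranged from 11.22 to 11.68 on the chimpanzee diet (median 11.55), from 11.33 to 12.09 on fast food (median 11.84), from 11.61 to 11.96 on cafeteria (median 11.81) and from 11.55 to 11.95 on pellets (median 11.69). Human minus chimpanzee was 0.29 ± 0.09 SE (adjusted p = 0.169). Across the 4 diets Cyp3a11 was not called, but it was with quantile normalization (adjusted p = 0.0173), cyclic loess (0.0361), array weights (0.0276) or without fast food batch 2 replicate 2 (0.0440). Cyp3a44, which is known in mouse liver as a gene of females, was even in the chimpanzee diet mice, from 6.61 to 7.11 (median 6.94), and in the pellet mice, from 6.88 to 7.24 (median 7.05). On cafeteria the 6 mice had 6.50, 5.03, 6.83, 6.71, 5.03 and 5.24, and on fast food 7.09, 5.26, 6.59, 6.74, 6.16 and 6.79 (batch 1 replicates 1 to 3, then batch 2 replicates 1 to 3). Some mice on human diets thus lay among the others and some far below them, with 3 cafeteria mice and 1 fast food mouse at 5.26 or below. Cyp3a44 was called across the 4 diets in the main fit of 24 mice (moderated F, adjusted p = 0.0446). That call was lost with no filter on low values (0.0881) and without the 4 arrays of lowest 90th percentile (0.124). It was also lost with the beta-actin difference as a covariate (0.0764), with batch left out (0.109) and with the methods' test after adjustment (0.105). The human diets were below pellets by -0.90 ± 0.30 SE (adjusted p = 0.121) and below the chimpanzee diet by -0.73 ± 0.31 (adjusted p = 0.297), neither of which passed, and the fit assumes an equal spread in all diets. The call across diets was lost for 16 of the 24 mice left out in turn, with adjusted p between 0.0538 and 0.115 in those fits, and it was held only when 1 of 8 mice on human diets was left out.

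Cyp3a16, known as a fetal and female gene of mouse liver, was dim, at 2.14 to 2.76 (median 2.45) on cafeteria and 2.37 to 3.25 (median 2.57) on fast food. On pellets it ran from 2.74 to 4.50 (median 3.27), and on the chimpanzee diet from 2.55 to 5.82 (median 2.82). The highest chimpanzee diet value was that of batch 2 replicate 3, followed by 3.82 in batch 1 replicate 1 and at most 2.95 in the others. The human diets lay below pellets by -0.85 ± 0.20 SE (1.80-fold, adjusted p = 0.0144), a call that held for each of the 18 mice left out, with differences between -0.97 and -0.64. The difference was -1.35 in batch 1 and -0.36 in batch 2, and as a contrast in the fit of all 24 mice, which includes the widely spread chimpanzee diet, its adjusted p was 0.21. Means below 3.15 on the human diets may compress it. Cyp3a16 was above 3.15 in 7 arrays, 4 of them pellet, 2 chimpanzee diet and 1 fast food, and is not tested when the filter asks for 12, so that its call likewise adds no support to the counts. Human minus chimpanzee was -0.86 ± 0.34 (adjusted p = 0.258). Between batches, chimpanzee minus pellet went from -0.85 in batch 1 to 0.87 in batch 2.

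The promoters of Cyp3a16 and Cyp3a44 are printed beside that of Cyp3a11, because the first pair spread widely between mice and Cyp3a11 lay within a narrower range. They come from the same RefSeq table and strand, at chr5:145469674-145469973, chr5:145805825-145806124 and chr5:145879805-145880104, with the same motifs in capitals.
Cyp3a16: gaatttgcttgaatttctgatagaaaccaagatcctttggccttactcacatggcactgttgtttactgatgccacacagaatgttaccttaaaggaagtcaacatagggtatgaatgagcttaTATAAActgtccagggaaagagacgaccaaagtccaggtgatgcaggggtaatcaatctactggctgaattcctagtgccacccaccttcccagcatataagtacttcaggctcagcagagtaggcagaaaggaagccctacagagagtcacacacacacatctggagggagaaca
Cyp3a44: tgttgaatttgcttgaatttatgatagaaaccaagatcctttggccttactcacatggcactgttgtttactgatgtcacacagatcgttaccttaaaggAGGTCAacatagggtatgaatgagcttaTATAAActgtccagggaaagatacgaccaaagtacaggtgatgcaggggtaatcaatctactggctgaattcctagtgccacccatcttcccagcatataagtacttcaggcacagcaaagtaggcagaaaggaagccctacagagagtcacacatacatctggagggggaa
Cyp3a11: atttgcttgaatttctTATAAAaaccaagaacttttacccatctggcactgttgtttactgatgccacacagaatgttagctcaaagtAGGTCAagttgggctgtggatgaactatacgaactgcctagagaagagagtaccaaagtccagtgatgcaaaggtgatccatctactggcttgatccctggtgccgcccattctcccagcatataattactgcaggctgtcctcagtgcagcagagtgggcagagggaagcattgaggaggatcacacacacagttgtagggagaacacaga
The Cyp3a16 and Cyp3a44 windows were identical at 93.4% of aligned bases, and they matched the Cyp3a11 window at 74.8% and 71.2%. TATAAA was present in all 3 windows, beginning 126 bases before the start in Cyp3a16, 122 in Cyp3a44 and 234 in Cyp3a11. These matches lie farther from the start than that of Cyp2c38 (31 bases), and whether they act as TATA boxes was not tested. Only exact matches were searched, so the distances hold for TATAAA alone. The similar stretches tataag in Cyp3a16 and Cyp3a44 and tataat in Cyp3a11 lie closer to the start and are not in capitals. AGGTCA was present in those of Cyp3a44 (beginning 150 bases before the start) and Cyp3a11 (162 before) and absent from that of Cyp3a16. Since genes of this cluster are so alike, a probe set named for 1 of them may also bind the transcript of another, and the share of such binding was not tested.

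Cyp2e1, Cyp1a2 and Cyp2f2, each the brightest of its subfamily, had diet means at most 0.21 apart. Cyp2e1, the enzyme of hepatocytes near the central vein that oxidizes ethanol, acetone and paracetamol, had means of 12.06 ± 0.11 (SD, n = 6) on the chimpanzee diet, 12.05 ± 0.20 on fast food, 12.10 ± 0.11 on cafeteria and 11.89 ± 0.11 on pellets. Human minus pellet was 0.19 ± 0.08 SE for it, which did not pass. Across the 4 diets Cyp2e1 was not called (moderated F, adjusted p = 0.378), but it was with quantile normalization (0.0195). Cyp1a2, which clears caffeine and activates aromatic amines of cooked meat and is controlled through Ahr, had means of 10.23 ± 0.30, 10.28 ± 0.23, 10.22 ± 0.19 and 10.39 ± 0.19 in the same order. Its 95% interval for human minus chimpanzee ran from -0.16 to 0.20. Cyp2f2, which activates naphthalene, had diet means between 11.65 and 11.72, with an interval from -0.16 to 0.17 in that comparison. For these 3 enzymes every bound of the interval for human minus chimpanzee was within 0.21 log2 units of 0. Cyp2a12, a bile acid hydroxylase of the mouse, had means of 9.27 ± 0.17 on the chimpanzee diet, 9.34 ± 0.27 on fast food, 8.96 ± 0.23 on cafeteria and 9.16 ± 0.33 on pellets. Cafeteria minus fast food was -0.39 ± 0.13 SE for it (adjusted p = 0.824).

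**Figure D3:**
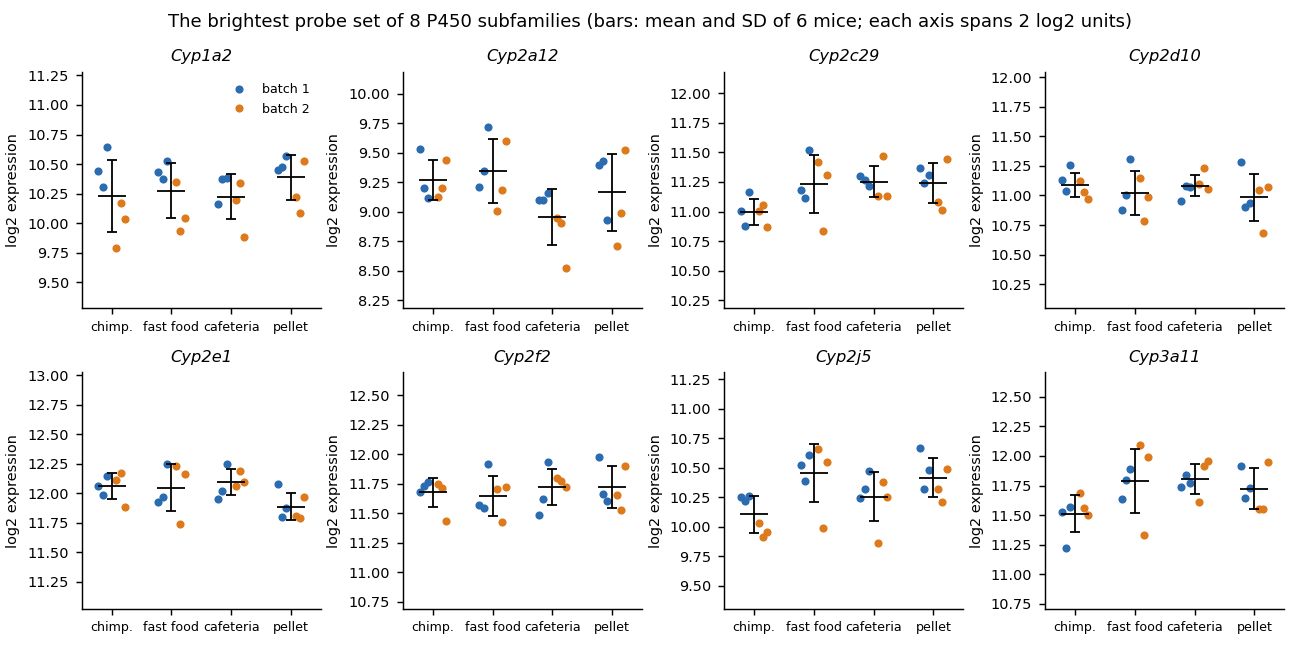
Log2 expression in each of 24 livers of the brightest probe set of 8 P450 subfamilies, grouped by diet (blue points, batch 1; orange points, batch 2; black bars, mean and SD over 6 mice); each axis spans 2 log2 units. The diet means of Cyp2e1, Cyp1a2 and Cyp2f2 lie at most 0.21 apart, and fast food batch 2 replicate 2 is the lowest mouse of its diet in every panel but that of Cyp2a12.

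Cyp2j genes make epoxides of arachidonic acid, and 6 of their 7 probe sets passed the filter with 0 called. The 2 probe sets of Cyp2j5 both had their lowest mean on the chimpanzee diet: 10.10 against 10.25 to 10.45 in the other diets for the brighter one, and 7.50 against 7.89 to 8.04 for the other. Chimpanzee minus pellet was -0.31 ± 0.10 SE (adjusted p = 0.056) and -0.50 ± 0.17 (adjusted p = 0.0809). Across the 4 diets the brighter probe set was not called (moderated F, adjusted p = 0.0812). It was called with quantile normalization (0.00362), cyclic loess (0.00441) or array weights (0.00905), or without fast food batch 2 replicate 2 (0.0143). Cyp2u1, a hydroxylase of long-chain fatty acids, had a cafeteria mean of 3.66 ± 0.25 in its brighter probe set, against 3.94 ± 0.11 on the chimpanzee diet, 3.97 ± 0.25 on fast food and 4.05 ± 0.09 on pellets. It did not pass across diets (adjusted p = 0.0839), and its other probe set had diet means between 3.27 and 3.37. The brighter probe set was called across diets with the 90th percentile as a covariate (0.00551) and without the 4 arrays of lowest 90th percentile (0.026). It was also called without fast food batch 2 replicate 2 (0.0340) or without cafeteria batch 1 replicate 2 (0.0362). Cyp2s1, which is found mostly in epithelia outside the liver, had diet means between 3.11 and 3.21.

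Between human and chimpanzee diets the count of 0 called probe sets changed with 1 mouse and with some settings. Of the 11 with an unadjusted p under 0.05, 7 were higher on the human diets (Cyp2c23, Cyp2c29, Cyp2c55, both probe sets of Cyp2j5, Cyp2r1 and Cyp3a11) and 4 lower (Cyp2d40, Cyp2j9, Cyp3a16 and Cyp3a44). Without fast food batch 2 replicate 2, whose array had one of the 4 lowest 90th percentiles, 2 were called, Cyp2c23 and Cyp3a11, both higher on the human diets, beside 1.85% of all probe sets. Cyp2c23 makes epoxides of arachidonic acid, and its human minus chimpanzee difference in all 18 mice was 0.32 ± 0.09 SE (adjusted p = 0.11). Without all 4 of those arrays 0 were called (1.54% of all). With quantile normalization 1 was called (2.3%), with cyclic loess 1 (2.79%) and with array weights 7 (6.49%). Without the same mouse, 10 probe sets were called across the 4 diets (9.24% of all) in place of 6 (7.22%). The value of that mouse for Cyp3a11 was 11.33, against 11.64 to 12.09 in the other fast food mice.

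Mice of the same diet and batch differed widely in some of these genes. The SD within diet and batch had a median of 0.206 over the 39 probe sets, against 0.186 over all 25544, but was 0.73 for Cyp3a16, 0.63 and 0.50 for the probe sets of Cyp2d13, 0.60 for Cyp3a44 and 0.58 for Cyp2d9. These 5 lay between percentiles 98.6 and 99.8 of all probe sets. Cyp2d9, a testosterone hydroxylase that is higher in male mice, and Cyp2d13 were chosen after their values were seen. In the 24 females Cyp2d9 ran from 6.67 to 9.59, with diet means between 8.00 and 8.78, and the 4 diets overlapped. Its human minus chimpanzee difference was -0.46 in batch 1 and 1.49 in batch 2. For Cyp2d13 chimpanzee batch 2 replicate 2 was at 6.83 and fast food batch 2 replicate 2 at 6.95 in 1 probe set, and the same mice were the lowest of their diets, at 5.26 and 5.66, in the other. Cyp3a44 and Cyp2c68 shared some of their low mice: on cafeteria and on fast food the lowest and the next lowest mouse for both genes were replicate 2 of batch 1 and replicate 2 of batch 2. This comparison of 2 genes was not among the planned ones. The third low cafeteria mouse for Cyp3a44, batch 2 replicate 3 at 5.24, was at 11.08 for Cyp2c68, near the top of the cafeteria range. In the replicate 2 mice Cyp2c68 was at 10.38 and 10.54 on cafeteria and at 10.29 and 10.46 on fast food. On the chimpanzee diet the genes shared the lowest mouse (batch 1 replicate 3) but not the next, and on pellets neither. A shared litter or handling of these mice was not tested, since no label gives it.

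**Figure D4:**
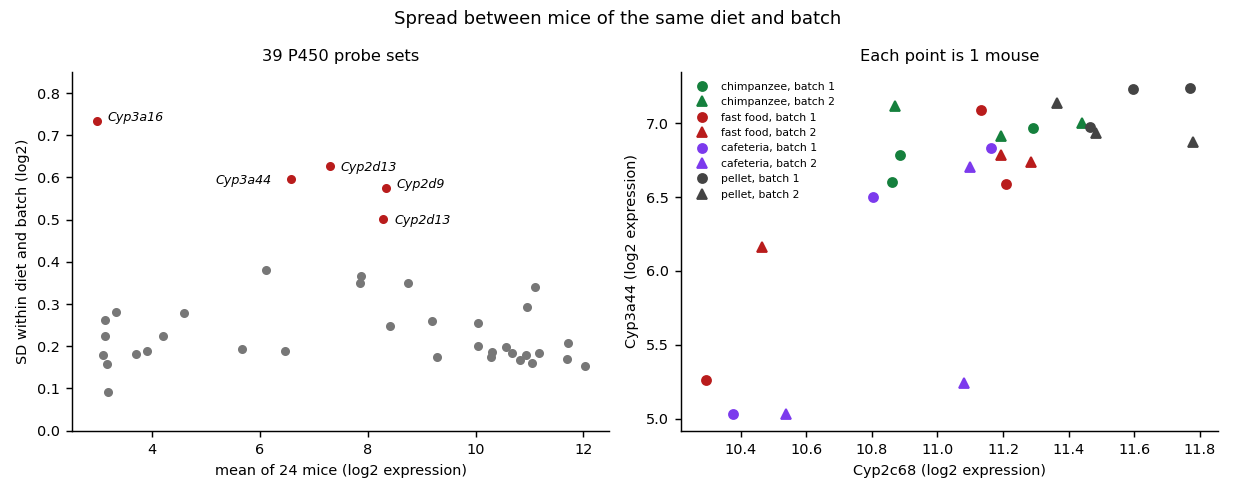
Left, SD between mice of the same diet and batch (log2) against the mean of 24 mice for the 39 P450 probe sets, with those above 0.5 in red and named; Cyp3a16 has the highest value, 0.73. Right, Cyp3a44 against Cyp2c68 (log2) in each mouse, coloured by diet, with circles for batch 1 and triangles for batch 2; mice on human diets extend to 5.03 for Cyp3a44 and 10.29 for Cyp2c68, below the chimpanzee diet and pellet mice.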

How the data were processed

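Total RNA of liver was hybridized to Affymetrix mouse genome arrays, 1 array per mouse. The authors deposited log2 expression values, in 1 column for each mouse, computed by rma (robust multichip average) in the package affy, which corrects background, normalizes by quantiles and summarizes probes; no version of it is named. Deposited columns do not share 1 distribution (their 90th percentiles ran from 5.66 to 6.61), so the table is not quantile normalized across all 24 arrays, and how arrays were grouped for rma is not given in the sources used here. Precision is limited by the number of arrays, 24. Groups and batches came from sample titles. Of 45101 probe sets, 64 controls were set aside. A probe set entered the tests when 6 or more arrays had it above 3.15, the median over the whole table (25544 did). Gene symbols were those of the platform annotation, and all 46 Entrez identifiers were found in a RefSeq table.

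Differences were fitted with limma 3.58.1 in R 4.3.3 on every probe set (lmFit, eBayes, batch as covariate), two-sided, with Benjamini-Hochberg adjustment over all probe sets. Human diets, pooled as in the study's methods, were compared with chimpanzee or pellet in the 18 mice involved, and other comparisons used 1 fit of 24. The fits were tested on simulated data. The detection filter of the methods was not used. Named genes were all called members and the brightest probe set of each subfamily; Cyp2d9 and both Cyp2d13 probe sets were added after their values were seen. Members and gene lists were chosen with earlier results of these data known. Promoters were searched and aligned in Python with Biopython 1.88.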

Additional observations from a re-analysis of the deposited data

Results flagged for a closer look

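In 88 sets of 6 mice (22 named probe sets in 4 diets), a mouse was looked for that lay apart from the other 5 by more than Dixon's 95% critical value, which chance alone passes in about 1 of 20 groups. There were 4. Chimpanzee batch 2 replicate 2 was low for a probe set of Cyp2d13, at 6.83, with the next mouse at 8.26. Fast food batch 2 replicate 2 was high for Cyp2u1, at 4.46, above the next at 3.94. Chimpanzee batch 2 replicate 3 was low for Cyp2f2, at 11.4, below 11.7. Pellet batch 1 replicate 1 was low for Cyp1b1, at 2.71, below 2.92, and every value of this probe set was near background.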

How the results depend on the processing

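Shares in parentheses are those of all probe sets called. None of the called differences was reversed under the alternatives run. Across the 4 diets the 6 called members (7.22%) became 13 with quantile normalization of the deposited values (11.6%), 12 with cyclic loess (12.6%), 14 with array weights (16.7%), 3 with batch left out (2.14%), 2 with the beta-actin difference as covariate (2.90%), 3 with the methods' test after Benjamini-Hochberg adjustment (5.52%), 1 in batch 1 alone (4.27%) and 0 in batch 2 alone (0.0822%). For human minus chimpanzee, 0 (0.767%) became 1 with quantile normalization (Cyp3a11, 2.3%), 1 with cyclic loess (Cyp2c23, 2.79%), 7 with array weights (6.49%), 4 with the methods' test at an unadjusted p of 0.01 (4.23%), and 1 as a contrast in all 24 mice (1.92%). For human minus pellet, 5 (4.03%) became 2 when the filter asked for 12 arrays (4.70%), 8 with the 90th percentile as covariate (8.83%), 3 with batch left out (1.55%), 3 with the methods' test after adjustment (2.81%), 1 in batch 1 (2.44%) and 0 in batch 2 (0.114%). For chimpanzee minus pellet, 4 (1 higher, 3 lower; 8.69%) became 2 with the filter in 12 arrays (10%), 13 with quantile normalization (5 higher, 8 lower; 11.1%), 12 with cyclic loess (12.3%), 2 with the beta-actin covariate (1.23%), 8 with array weights (14.8%), 9 in only the 12 mice of the pair (12.7%) and 0 in batch 2 (0.125%). Each batch alone has fewer mice. The cause of the other moves was not tested. With each mouse left out in turn the counts ran from 4 to 10 (4 diets), 0 to 2 (human minus chimpanzee), 4 to 5 (human minus pellet) and 3 to 5 (chimpanzee minus pellet); the 10 and the 2 came without fast food batch 2 replicate 2. Cafeteria minus fast food had 0 called in all 40 alternatives. Over all tested probe sets, residuals of same-numbered mice of different diets correlated with a median of -0.0655 (36 pairs, from -0.575 to 0.359). Those of other mice had a median of -0.0572 (72 pairs, from -0.515 to 0.588). Whether same-numbered mice shared a litter or handling was not tested. With the replicate block 6, 0, 4, 3 and 0 were called in the 5 comparisons. Without the 4 arrays of lowest 90th percentile, 5, 0, 4, 4 and 0 were called. The call of Cyp2c68 across diets was lost without pellet batch 1 replicate 1, batch 1 replicate 3 or batch 2 replicate 3 (adjusted p up to 0.0752). Signal near background limits Cyp2c55, Cyp2r1 and Cyp3a16.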
